A study of Homo sapiens with 12 samples.

Results

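Genes whose messenger RNA differed at least 2-fold in the same direction with and without glucose, both in the presence and in the absence of glutamine, were examined in MDA-MB-231 cells, an established line of human breast adenocarcinoma cells. The 2 ratios were taken from group means, full over glutamine-only medium and glucose-only over deficient medium, and genes had to reach a normalized count of 10 in 3 or more of the 12 libraries to be tested. This rule chose 300 of the 9270 genes tested: 170 were higher with glucose (1.83% of tested genes) and 130 were lower (1.4%). By the growth protocol, all cells had been grown in a high-glucose salt solution with 10% fetal bovine serum, a name that may stand for a culture medium. All were then kept for 36 h with 3% serum in 1 of 4 media, with 3 libraries each. Glucose was at 25 mM in full and glucose-only medium, glutamine was at 4 mM in full and glutamine-only medium, and deficient medium had neither. The 6 libraries with glucose were therefore the full and glucose-only ones, and the 6 without were the glutamine-only and deficient ones. The labels do not say whether the 3 libraries of a medium, lettered A to C, came from separate cultures, so the p-values measure only the spread between libraries, which may be technical.

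Glucose feeds glycolysis, the pentose phosphate pathway and, through the hexosamine pathway, the sugar donors for N-linked glycosylation of proteins in the endoplasmic reticulum (ER). When protein folding in the ER is disturbed, the unfolded protein response raises ER chaperone genes through the transcription factors ATF6 and XBP1 and, through the kinase PERK and the factor ATF4, genes of the integrated stress response. The paired factors MondoA and Mlx, by contrast, switch on genes such as TXNIP when glucose phosphates accumulate.

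Each library held 875033 to 1473587 reads assigned to genes, and 17414 to 19817 genes had at least 1 read. The deposited values are reads divided by a size factor, here called normalized counts, and 1 read corresponded to a normalized count of 0.661 to 1.30. Of the genes used as markers of this line, such as VIM, CD44 and AXL, 9 of 9 were measured, with summed counts of 3149 to 3411 with glucose and 2837 to 4438 without. Markers of other cells were low: none of 10 for fibroblasts, 11 for blood cells and 7 for adipocytes reached 10 in any library, nor did 6 of 8 endothelial ones (highest value 19.7). The labels call the cells epithelial, and 7 of 12 luminal epithelial markers were tested (highest value 396, summed counts of 595 to 672 with glucose and 608 to 873 without), while the other 5 stayed under 10 everywhere.

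The genes that met the rule made up 43.7% of the 389 genes at least 2-fold higher with glucose when glutamine was present (4.2% of tested genes) and 19.9% of the 853 when it was absent (9.2%). On the lower side they were 33.0% of 394 genes (4.25%) and 15.1% of 862 (9.3%). The pairs of libraries behind the 2 ratios are different ones. Of the genes higher with glucose, 162 of 170 were protein coding, the median normalized count over the 12 libraries was 23.0, and 34 genes reached a mean of 50. Of those lower with glucose, 119 of 130 were protein coding, the median was 19.8 and 32 reached a mean of 50. Among all tested genes the median was 28.5. The smaller of a gene's 2 ratios had a median of 2.46-fold in the higher and 2.60-fold in the lower set, and 38 and 46 genes reached 3-fold in both ratios. Many members were sparse on one side: 34 of the 170 reached a count of 10 in libraries with glucose alone, and 55 of the 130 in libraries without glucose alone. The 6 libraries with glucose did not overlap the 6 without in 109 higher genes (3.35% of all tested genes were apart in this direction) and in 79 lower genes (3.97%). Within each glutamine level taken alone, the 3 libraries with and the 3 without glucose did not overlap at either level in 154 higher (7.69%) and 119 lower genes (7.58%). Because the rule used these values, no test of the glucose effect is given for the members. Calls counted per gene list below include members, so these counts are a description, to be read beside the shares of all genes. For the whole table, limma called 3602 of 9270 genes for the average glucose effect (38.9%), 18.4% higher and 20.5% lower with glucose. With glutamine present it called 22.5% (11.6% higher, 10.8% lower), and with glutamine absent 43.2% (20.1% higher, 23.2% lower).

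**Figure D1:**
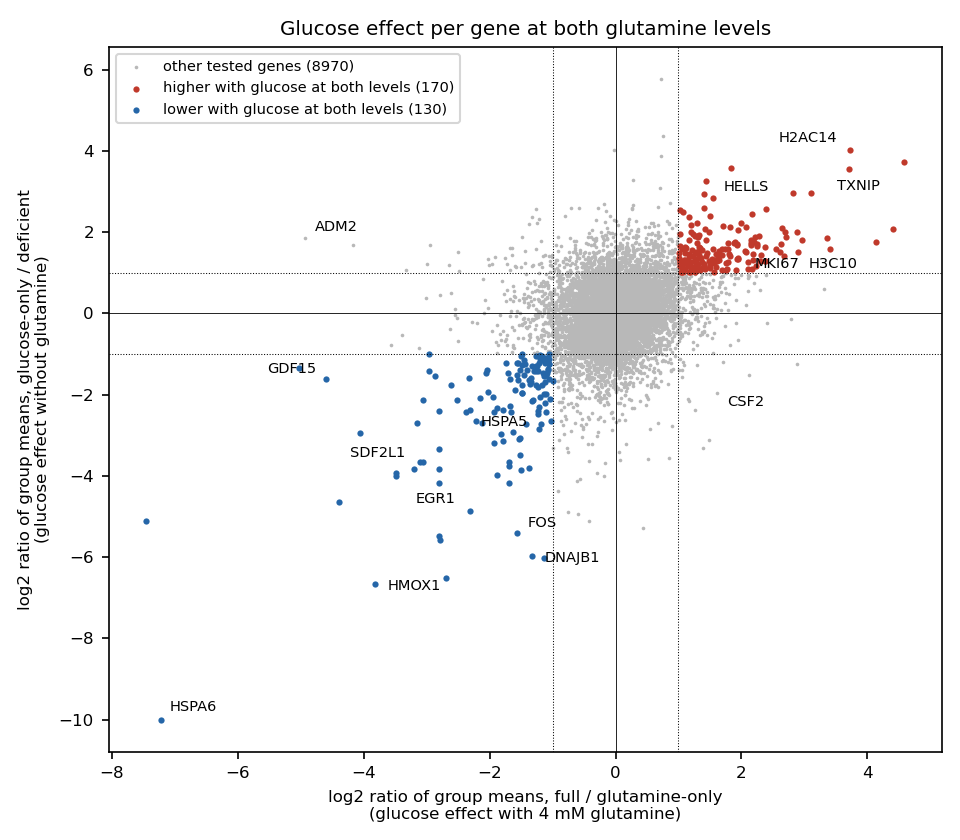
Log2 ratio of group means for the 9270 tested genes, full over glutamine-only medium on the x axis and glucose-only over deficient medium on the y axis, with dotted lines at the 2-fold limits. The 170 red genes are at least 2-fold higher with glucose in both ratios and the 130 blue ones at least 2-fold lower, with HSPA6 farthest down.

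TXNIP, an arrestin-family protein that restrains glucose uptake and binds thioredoxin (ENSG00000265972, chromosome 1, 145992435 to 145996579), had the largest smaller ratio of the higher members with a mean of at least 50. Its normalized counts were 116, 133 and 120.2 in the full medium, 185, 195 and 174 in glucose-only, 8.12, 12.5 and 7.46 in glutamine-only and 15.6, 16.9 and 14.8 in deficient medium. All 6 libraries with glucose lay above all 6 without, and the means were 13.1-fold higher with glutamine present and 11.7-fold higher with it absent. Of the genes higher with glucose it was the only one past the threshold in the opposite direction for glutamine, with a log2 change of -0.65 ± 0.12 (SE, limma adjusted p = 0.000108). In the list of targets of MondoA and its relative ChREBP, 10 genes were tested, 1 was called higher (TXNIP) and 3 lower with glucose. Of all tested genes 18.4% were called higher and 20.5% lower. The median log2 change of the list was -0.31, with 0.04 in the presence of glutamine and -0.75 in its absence. ARRDC4, another arrestin-family gene of that list, did not reach the count filter. The TXNIP promoter is shown because it was the 1 promoter of 133 in the higher set that held the E-box-like sequence CACGNG (N is any base) 2 times with 5 bases between, on either strand, against 0 of 99 in the lower set and 12 of 7285 tested genes with a promoter (0.165%). The window runs from 250 bases before to 50 after the RefSeq start (GRCh38.p14, chr1:145996530-145996829, minus strand), and the capitals mark the pair, which begins at position -88.
TXNIP: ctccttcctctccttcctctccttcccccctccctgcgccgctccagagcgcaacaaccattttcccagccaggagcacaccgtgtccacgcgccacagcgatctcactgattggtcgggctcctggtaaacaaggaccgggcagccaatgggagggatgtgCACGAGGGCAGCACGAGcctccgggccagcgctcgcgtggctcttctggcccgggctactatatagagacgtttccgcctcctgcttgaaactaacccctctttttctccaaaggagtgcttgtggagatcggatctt

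**Figure D2:**
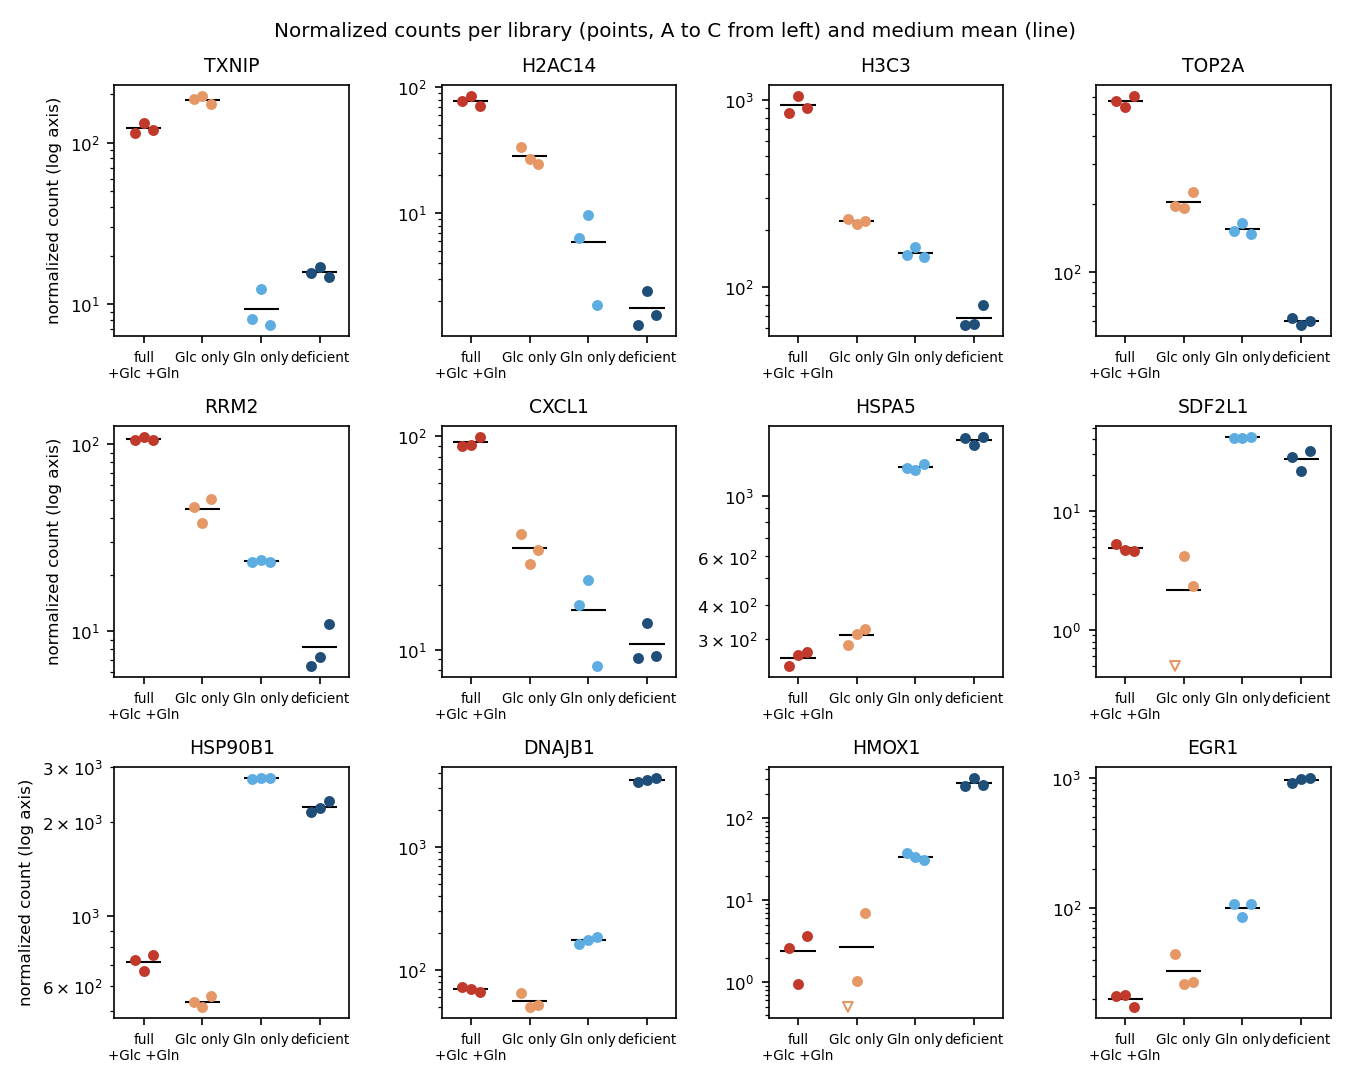
Normalized counts of 12 genes in every library on log axes, with points for libraries A to C from left to right in full, glucose-only (Glc only), glutamine-only (Gln only) and deficient medium and a line at the mean. TXNIP, H2AC14, H3C3, TOP2A, RRM2 and CXCL1 lie higher with glucose and the other 6 lower, and the open triangles mark counts of 0 in glucose-only library A of SDF2L1 and HMOX1.

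Among the gene lists, that of ER chaperones and the unfolded protein response held the most genes lower with glucose, 15 of its 35 tested ones. HSPA5, the main ER chaperone of the HSP70 family, also known as BiP (ENSG00000044574, chromosome 9, 125234853 to 125241343), had normalized counts of 239, 261 and 268 in the full medium, 285, 313 and 327 in glucose-only, 1266, 1248 and 1309.5 in glutamine-only and 1623, 1529.8 and 1643 in deficient medium. The libraries with and without glucose were far apart at either glutamine level, with means 4.98-fold and 5.18-fold lower with glucose. HSP90B1, the ER member of the HSP90 family, had 724, 670.2 and 755 in the full medium, 532, 514 and 556 in glucose-only, 2743, 2767 and 2757 in glutamine-only and 2148, 2211 and 2339.5 in deficient medium. Its means were 3.85-fold and 4.18-fold lower with glucose, without overlap.

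SDF2L1, an ER protein found in chaperone complexes, had 5.29, 4.70 and 4.59 in the full medium, 0, 4.19 and 2.35 in glucose-only, 41.5, 41.4 and 41.9 in glutamine-only and 28.6, 21.7 and 31.8 in deficient medium. These counts rest on few reads with glucose, and the means were 8.57-fold and 12.6-fold lower there, with 23.3-fold for the second without glucose-only library B. MANF, a small secreted ER protein, had 27.1, 37.6 and 53.2 in the full medium, 24.1, 26.2 and 23.5 in glucose-only, 188, 169 and 190.1 in glutamine-only and 159, 158 and 144 in deficient medium. It was 4.63-fold and 6.25-fold lower with glucose. DNAJB9, an HSPA5 co-chaperone, had 26.4, 19.7 and 29.4 in the full medium, 60.2, 50.3 and 64.7 in glucose-only, 108, 116 and 112 in glutamine-only and 242, 208 and 299 in deficient medium. Its order of media differed from that of MANF: deficient libraries were the highest, and glucose-only libraries lay above full ones. CALR, the calcium-binding lectin chaperone calreticulin, had 329, 336 and 346 in the full medium, 169.8, 209.6 and 203 in glucose-only, 877, 860.0 and 842 in glutamine-only and 629, 694 and 620.4 in deficient medium, which put glutamine-only libraries highest and glucose-only lowest.

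Other members of the ER list ranged widely. HERPUD1, which acts in ER-associated degradation, was 5.00-fold and 3.02-fold lower with glucose, and ERO1B, an oxidase that drives disulfide formation, 6.98-fold (10.8-fold without full library C) and 5.33-fold lower. The disulfide isomerases PDIA3, PDIA4 and PDIA6 were also members: PDIA3 had a mean of 365 ± 22.2 in glutamine-only and 112 ± 14.9 in full medium (SD, n = 3), and PDIA4 had 635 ± 49.1 against 153 ± 7.14. In all, 15 of the 35 tested genes of this list met the rule, and CRELD2, HYOU1, DNAJC3 and DNAJB11 were the rest. With 1 deficient library left out the second ratio fell to 1.98-fold for CRELD2 (B) and 1.56-fold for HYOU1 (A). Over the list, members included, 29 of 35 genes were called lower and 0 higher in the average glucose effect by limma. Of all tested genes 20.5% were called lower and 18.4% higher. The median log2 change of the list was -1.12 (all tested genes: -0.00). Edge cases by scaling were few: 1 gene of the list was called higher with glucose when library totals were made equal or quantiles were matched. EIF2AK3, the gene of PERK and not on the list, was 2.18-fold and 2.88-fold lower with glucose (the first 1.81-fold without glutamine-only library C). NUCB2, a calcium-binding protein of the secretory pathway, was 2.94-fold and 3.11-fold lower. The pseudogenes HSP90B2P, HSP90B3P and PDIA3P1 were also in the lower set, and since they resemble HSP90B1 and PDIA3 their reads may belong to those genes.

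Among the 99 lower genes with a promoter in the RefSeq table, 5 (5.05%) held the ER stress element, CCAAT and then CCACG after 9 bases of any kind, on either strand: CALR, CRELD2, ERO1B, HSP90B1 and HSPA5. It was found in 0 of 133 promoters of the higher set and in 12 of 7285 of all tested genes (0.165%). A second form, ATTGG and then CCACG after 1 base, was found in 4 of the 99 (HERPUD1, HYOU1, RAD9A and SDF2L1), in 1 of the 133 (SHCBP1) and in 10 of the 7285 (0.137%). A match of letters is a description of the window and not a measured binding site. The promoters of the 3 holders of the longer element with the largest smaller ratio and a mean of at least 50 are shown so that the element can be read in place, with its match in capitals (chr9:125241294-125241593, minus strand, then chr12:103930160-103930459, plus strand, then chr19:12938359-12938658, plus strand).
HSPA5: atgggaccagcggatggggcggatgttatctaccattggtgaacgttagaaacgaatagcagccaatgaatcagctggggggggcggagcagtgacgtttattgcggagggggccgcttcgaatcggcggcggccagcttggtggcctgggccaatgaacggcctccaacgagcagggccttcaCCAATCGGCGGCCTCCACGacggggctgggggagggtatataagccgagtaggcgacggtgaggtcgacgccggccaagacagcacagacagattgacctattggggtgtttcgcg
HSP90B1: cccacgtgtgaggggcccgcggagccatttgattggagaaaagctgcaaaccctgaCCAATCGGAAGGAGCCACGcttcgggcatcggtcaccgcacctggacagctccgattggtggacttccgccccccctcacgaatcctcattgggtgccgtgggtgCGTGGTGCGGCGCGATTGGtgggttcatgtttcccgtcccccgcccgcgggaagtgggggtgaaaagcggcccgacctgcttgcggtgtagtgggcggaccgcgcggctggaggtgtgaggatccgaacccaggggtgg
CALR: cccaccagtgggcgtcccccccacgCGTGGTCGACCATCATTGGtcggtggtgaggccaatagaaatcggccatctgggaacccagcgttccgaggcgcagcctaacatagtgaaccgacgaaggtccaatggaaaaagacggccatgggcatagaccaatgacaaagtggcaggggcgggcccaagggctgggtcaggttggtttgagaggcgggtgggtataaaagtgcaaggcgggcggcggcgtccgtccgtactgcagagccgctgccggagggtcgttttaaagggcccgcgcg
In HSPA5 the match is on the printed strand, in CALR on the other strand, and in HSP90B1 there is 1 on each.

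Genes of the integrated stress response, the branch that acts through ATF4, split by glutamine level. Of 32 tested genes of that list, 25 were called lower and 0 higher with glucose (1 higher with equal totals), against 20.5% and 18.4% of all tested genes. The median log2 change, however, was -1.65 with glutamine present and 0.02 with it absent. The difference between the 2 glucose effects was called in the negative direction for 26 of the 32 and in the positive direction for 1, against 11% and 15.5% of all tested genes. Only 5 of the list met the rule at both levels. DDIT3, the transcription factor CHOP, had 4.63, 1.88 and 8.26 in the full medium, 26.5, 28.3 and 22.3 in glucose-only, 37.0, 30.8 and 22.4 in glutamine-only and 88.5, 89.4 and 83.1 in deficient medium. Its lowest counts were in full medium, and glucose-only libraries overlapped glutamine-only ones. GDF15, a secreted stress cytokine, had 1.98, 0.940 and 3.67 in the full medium, 22.9, 23.1 and 24.7 in glucose-only, 50.5, 42.4 and 67.1 in glutamine-only and 76.8, 72.4 and 67.6 in deficient medium. It was 24.3-fold lower with glucose in the presence of glutamine and 3.07-fold lower in its absence, and the first ratio was 36.5-fold without full library C. SLC3A2, the heavy chain of amino acid exchangers, was close to the limit without glutamine, at 2.02-fold, and 7.76-fold lower with it. ATF3 and PPP1R15A, which directs a phosphatase to a translation initiation factor, did not share this split: ATF3 was 3.24-fold lower with glutamine and 13.5-fold lower without (23.2-fold without glucose-only library B), and PPP1R15A 3.01-fold and 3.69-fold.

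Heat shock genes of the cytosol showed the reverse split. HSPA6, an HSP70 that is silent in most unstressed cells (ENSG00000173110, chromosome 1, 161524540 to 161526894), had 0, 0 and 1.83 in the full medium, 1.20, 2.10 and 0 in glucose-only, 95.6, 79.0 and 97.9 in glutamine-only and 1148, 1117 and 1120.5 in deficient medium. In reads this was 2 in full against 293 in glutamine-only libraries, a ratio of 149 in normalized counts (95% counting interval 44.6 to 1350), and 3 in glucose-only against 3250 in deficient libraries, a ratio of 1026 (355 to 5037). DNAJB1, an HSP70 co-chaperone, had 72.7, 70.5 and 66.0 in the full medium, 65.0, 50.3 and 51.7 in glucose-only, 161, 175 and 186 in glutamine-only and 3341, 3502 and 3617 in deficient medium. It was 2.50-fold lower with glucose where glutamine was present and 62.6-fold lower where it was not. ZFAND2A, a proteasome-associated protein raised by proteotoxic stress, was 3.67-fold and 15.8-fold lower. Over the list, 15 of 17 genes were called lower and 0 higher with glucose, against 20.5% and 18.4% of all tested genes. The median was -0.19 with glutamine and -2.59 without. The difference was called positive for 16 of 17 (15.5% of all tested genes), that is, the fall with glucose was larger in the absence of glutamine. Only HSPA6 and DNAJB1 of this list met the rule.

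Immediate early genes, which growth factors and stress induce within minutes, gave 7 members. EGR1, a zinc finger transcription factor, had 21.2, 21.6 and 17.4 in the full medium, 44.6, 26.2 and 27.0 in glucose-only, 107, 85.7 and 106 in glutamine-only and 907, 978 and 992 in deficient medium. All libraries with glucose lay below all without, and the deficient libraries stood far above the glutamine-only ones. FOS, a subunit of the factor AP-1, had 11.9, 12.2 and 11.9 in the full medium, 7.23, 10.5 and 2.35 in glucose-only, 39.7, 33.7 and 33.6 in glutamine-only and 305, 262 and 286 in deficient medium, and its relative FOSB was 11.2-fold and 15.3-fold lower with glucose. NR4A1, an orphan nuclear receptor, had 0 reads in full medium and 19 in glutamine-only medium, so that its mean was at least 7.02-fold lower with glucose against a floor of 3 reads over the group. Without glutamine it had 2 reads with glucose and 102 without, a ratio of 44.4 (95% counting interval 13.2 to 409). EGR3, ATF3 and ZFP36 completed the group. Of the 22 tested genes on the list, 18 were called lower and 3 higher with glucose (median log2 change -1.19), against 20.5% and 18.4% of all tested genes.

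Targets of NRF2, a factor that answers oxidants and electrophiles, gave 5 members. HMOX1, haem oxygenase, had 2.64, 0.940 and 3.67 in the full medium, 0, 1.05 and 7.05 in glucose-only, 37.9, 33.7 and 30.8 in glutamine-only and 249.9, 312 and 257 in deficient medium. Its means were 14.1-fold and 101-fold lower with glucose, on 9 reads in full and 7 in glucose-only libraries, and without glucose-only library C the second ratio was 521-fold. FTL, the light chain of the iron store ferritin, was the most abundant of them, with 650.0, 744 and 787 in the full medium, 978, 964 and 978 in glucose-only, 1564, 1723 and 1820.3 in glutamine-only and 3108, 3459 and 3684 in deficient medium, and it was 2.34-fold and 3.51-fold lower. The ferritin heavy chain FTH1 was 2.18-fold and 4.64-fold lower, GCLC, the catalytic subunit of the first enzyme of glutathione synthesis, 2.17-fold and 2.35-fold, and SQSTM1, an autophagy receptor, 2.80-fold and 3.88-fold. SQSTM1 rests on 10 reads in full and 25 in glutamine-only libraries and met the rule through glutamine-only library A, without which its first ratio was 1.74-fold, and that of GCLC was 1.95-fold without full library A. The ferritin pseudogene FTLP3 was in the lower set too and may share reads with FTL. Over the list, 16 of 20 genes were called lower and 0 higher (median -0.82), against 20.5% and 18.4% of all tested genes.

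Single members came from several further lists. MMP1, interstitial collagenase, had 31.1, 43.2 and 34.9 in the full medium, 143, 156 and 169 in glucose-only, 92.9, 99.2 and 83.0 in glutamine-only and 729, 675 and 707 in deficient medium. Glucose-only libraries lay above glutamine-only ones, so the groups overlapped, although each pair of media was apart. UGDH, which oxidizes UDP-glucose to UDP-glucuronate, was 2.19-fold and 2.89-fold lower with glucose. FLCN, folliculin, a regulator of the lysosomal nutrient response, was 2.35-fold and 2.69-fold lower, and the peptide hormone gene ADM 2.03-fold and 6.32-fold. The growth arrest genes GADD45B and GADD45G were members, GADD45B at 2.26-fold and 6.66-fold. Without full library C the first ratio of GADD45B was 1.99-fold, and without full library B that of ADM was 1.91-fold.

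Replication-dependent histone genes, which are transcribed in S phase and encode the core and linker histones, were the largest family in the set higher with glucose. By symbol, 32 of the 43 tested genes of this kind were members, 0 were in the lower set, and 23 of the 32 lay on chromosome 6. Histone messages mostly lack a poly(A) tail, and these libraries were made from total RNA depleted of ribosomal RNA. H3C3 (ENSG00000287080, chromosome 6, 26045384 to 26045869) had 854, 1050.0 and 908 in the full medium, 230.1, 217 and 223 in glucose-only, 148, 164 and 144 in glutamine-only and 62.5, 62.8 and 80.0 in deficient medium. Every library with glucose was above every library without, and the full medium stood highest, with ratios of 6.16-fold and 3.27-fold. H2AC14 (ENSG00000276368, chromosome 6, 27814302 to 27814777) had 78.7, 85.5 and 70.6 in the full medium, 33.7, 27.2 and 24.7 in glucose-only, 6.31, 9.63 and 1.86 in glutamine-only and 1.30, 2.41 and 1.55 in deficient medium, ratios of 13.2-fold and 16.3-fold. H2AC11 was 6.24-fold and 4.29-fold higher with glucose. H2BC14 had 9 reads in glucose-only and 1 in deficient libraries, a ratio of 13.2 with a 95% counting interval of 1.30 to 412. Of 28 tested genes on the histone list, 28 were called higher with glucose (18.4% of all tested genes). The median log2 change was 1.96 (2.34 with and 1.53 without glutamine). Members made up 21 of the 28, and the rule had used their glucose values. Near-identical histone copies may share reads, so values of single histone genes are uncertain.

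Genes of mitosis formed the next group. TOP2A, the topoisomerase that separates replicated chromosomes (ENSG00000131747, chromosome 17, 40388525 to 40417896), had 575, 540.5 and 605 in the full medium, 196, 192 and 226 in glucose-only, 152, 164 and 147 in glutamine-only and 62.5, 58.0 and 60.6 in deficient medium. The groups with and without glucose did not overlap, and the ratios were 3.72-fold and 3.39-fold. MKI67, which encodes the proliferation marker Ki-67, had 546, 525 and 527 in the full medium, 249, 247 and 221 in glucose-only, 125, 122 and 138 in glutamine-only and 65.1, 100.2 and 83.1 in deficient medium, ratios of 4.14-fold and 2.89-fold. BUB1B, a spindle checkpoint kinase, was 3.28-fold and 4.43-fold higher and the cyclin CCNA2 5.87-fold and 3.00-fold. Of 36 tested genes on the list, 35 were called higher and 0 lower with glucose (18.4% and 20.5% of all tested genes). The median log2 change was 1.21, and 16 of the 36 met the rule. CENPA, the centromeric histone H3, and its chaperone gene HJURP, both chosen after their values were seen, were also members (CENPA at 2.37-fold and 2.46-fold, the latter 1.62-fold without glucose-only library A, HJURP at 3.46-fold and 2.98-fold).

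Genes of DNA replication gave 11 members. RRM2, the small subunit of ribonucleotide reductase, had 104, 109 and 105 in the full medium, 45.8, 37.7 and 50.6 in glucose-only, 23.5, 24.1 and 23.3 in glutamine-only and 6.51, 7.24 and 10.9 in deficient medium. The media formed 4 separate steps from full down to deficient, and the ratios were 4.50-fold and 5.44-fold. MCM10, a replication initiation factor, had 19.2, 19.7 and 22.9 in the full medium, 20.5, 22 and 23.5 in glucose-only, 7.22, 4.82 and 4.66 in glutamine-only and 7.81, 6.04 and 6.21 in deficient medium. It was higher with glucose to a similar extent at either glutamine level, and its glutamine effect did not pass the threshold (-0.17 ± 0.21, limma adjusted p = 0.574). Among the others were CLSPN, MCM2, MCM6, TYMS, POLE2, ORC1, RFC4 and the transcription factor gene E2F1. Of these, MCM2, TYMS, ORC1, RFC4 and E2F1 fell under 2-fold in at least 1 ratio when a single library was left out. ORC1 fell to 1.67-fold without glucose-only library C. RFC4 and E2F1 could fall in either ratio. RFC4 fell to 1.84-fold without full library C and 1.56-fold without deficient library B. E2F1 fell to 1.57-fold without full library B and 1.94-fold without deficient library C. Over the list, members included, 31 of 35 genes were called higher and 0 lower (18.4% and 20.5% of all tested genes, median of the list 1.04). HELLS, a chromatin remodeller of dividing cells, had 101, 94.9 and 112 in the full medium, 78.3, 91.2 and 84.7 in glucose-only, 33.4, 34.7 and 37.3 in glutamine-only and 10.4, 13.3 and 11.6 in deficient medium. Its ratio was 2.92-fold with glutamine and 7.19-fold without, and deficient libraries were far below the rest. CKAP2, a microtubule-associated protein gene, was 2.74-fold and 2.81-fold higher with glucose. FOXM1, a transcription factor of mitotic genes chosen after its values were seen, was 2.39-fold and 2.09-fold higher with glucose (the second 1.87-fold without glucose-only library A).

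Promoters of cell cycle genes often carry a cell cycle homology region with the core TTTGAA and, near it, CCAAT boxes. TTTGAA was found on either strand in 41 of 133 promoters of the higher set (30.8%), in 8 of 99 of the lower set (8.08%) and in 9.88% of the 7285 promoters of tested genes. Among promoters of the higher set without a histone symbol the share was 34 of 104 (32.7%), and with one 7 of 29 (24.1%). Both TTTGAA and CCAAT were present in 26 of 133 (19.5%), against 4.23% of the 7285. CCAAT alone was common: 54.9% of the higher set, 48.5% of the lower set and 37.4% of the 7285. Motif shares are given without a test, for the 133 of 170 higher and 99 of 130 lower genes whose symbol was in the promoter table. Other motifs were searched too. The single E-box was rarer in the higher set (6.77%) than in the lower set (18.2%) and the 7285 (10.8%). In the same order, the unfolded protein response element was found in 0.752%, 3.03% and 1.03%. The amino acid response element was found in 0.752%, 4.04% and 1.67%, and the heat shock element in 0%, 2.02% and 0.316%. The promoters of TOP2A and MKI67, picked after their values were seen as the most abundant holders of both motifs outside the histones, are printed with every match on either strand in capitals (chr17:40417847-40418146, minus strand, then chr10:128126374-128126673, minus strand).
TOP2A: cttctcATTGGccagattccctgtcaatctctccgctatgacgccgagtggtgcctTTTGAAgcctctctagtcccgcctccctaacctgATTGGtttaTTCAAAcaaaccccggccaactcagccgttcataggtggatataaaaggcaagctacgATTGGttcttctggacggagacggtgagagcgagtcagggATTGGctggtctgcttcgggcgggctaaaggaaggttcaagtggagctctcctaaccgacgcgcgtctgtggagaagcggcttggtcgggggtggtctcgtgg
MKI67: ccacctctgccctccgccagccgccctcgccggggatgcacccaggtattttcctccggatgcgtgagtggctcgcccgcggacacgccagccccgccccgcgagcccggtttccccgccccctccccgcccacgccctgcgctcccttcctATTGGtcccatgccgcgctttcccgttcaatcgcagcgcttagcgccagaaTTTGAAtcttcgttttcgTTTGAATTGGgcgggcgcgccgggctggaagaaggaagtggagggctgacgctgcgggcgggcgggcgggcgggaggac
Matches to TTTGAA read TTTGAA or TTCAAA here, and matches to CCAAT read CCAAT or ATTGG.

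A few higher members belonged to inflammatory lists. CXCL1, a neutrophil-attracting chemokine (ENSG00000163739, chromosome 4, 73869393 to 73871308), had 89.9, 91.2 and 99.1 in the full medium, 34.9, 25.1 and 29.4 in glucose-only, 16.2, 21.2 and 8.39 in glutamine-only and 9.11, 13.3 and 9.32 in deficient medium, ratios of 6.12-fold and 2.82-fold without overlap. It was the 1 member among 14 tested NF-kB targets, of which 7 were called higher and 3 lower. DDX60, an interferon-induced helicase, was 3.37-fold and 2.36-fold higher and the 1 member among 14 tested interferon-stimulated genes. In that list 10 were called higher and 1 lower (0 lower with equal totals). The counts of both lists stand beside 18.4% called higher and 20.5% lower among all tested genes.

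In the lists of other pathways that use glucose, 0 or 1 gene met the rule. Members were 1.83% (higher) and 1.4% (lower) of all tested genes, so few would be found in any list of this size. The lists do not hold every such gene: GNPDA1, a lower member given at the end, stood on none. Of 21 tested genes of glucose transport and glycolysis 0 met the rule: 9 were called higher and 6 lower (3 with equal totals). Their median was 0.48 with glutamine and -0.29 without. These calls and those of the lists below stand beside 18.4% called higher and 20.5% lower among all tested genes. SLC2A1, the main glucose transporter gene of many cultured cells, had 194, 179 and 202 in the full medium, 77.1, 95.4 and 76.4 in glucose-only, 159, 184 and 199 in glutamine-only and 119.8, 123 and 136 in deficient medium. Full and glutamine-only libraries overlapped, while deficient libraries lay above glucose-only ones. Cholesterol synthesis (21 tested), fatty acid synthesis (20), the nuclear respiratory chain (33), and the pentose phosphate and nucleotide pathways (24) gave 0 members, and the hexosamine and glycosylation list gave UGDH alone of 30. All 13 mitochondrial messenger RNAs were called lower with glucose (median -0.39), but 7 were with equal library totals and 6 with quantile normalization. Of 19 cytosolic tRNA synthetases 13 were called lower (9 with equal totals), and of 30 ribosome biogenesis genes 21 were (15 with equal totals), with 0 called higher as deposited. Equal totals moved the median glucose effect of all genes by 0.14 on the log2 scale and the glutamine effect by 0.24, and the share of glucose calls that were higher went from 47.3% to 67.6%.

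**Figure D3:**
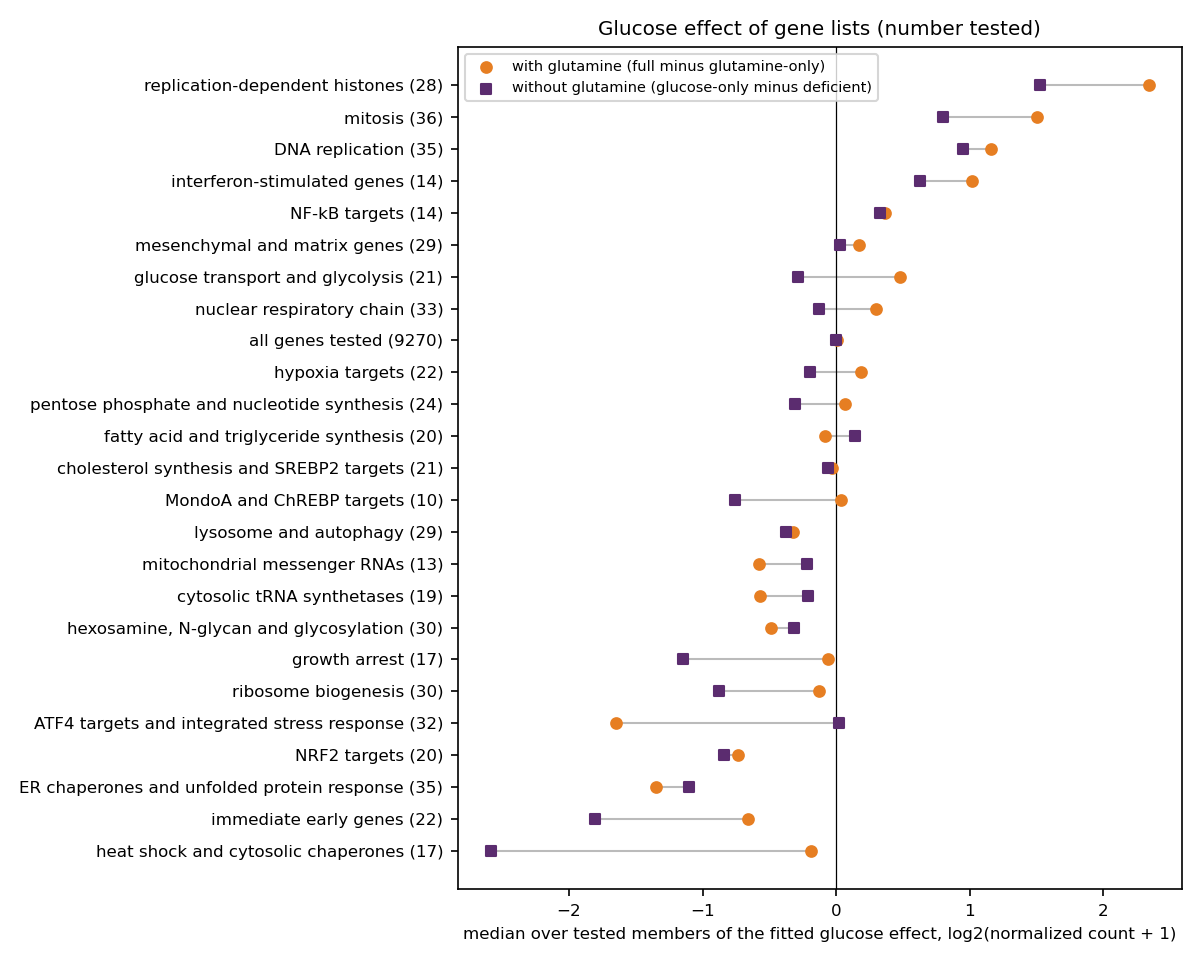
Median fitted glucose effect of each gene list on the log2(normalized count + 1) scale, with circles for full minus glutamine-only medium, squares for glucose-only minus deficient medium and the number of genes tested in brackets. The histone, mitosis and replication lists lie to the right at either level, while heat shock genes (-0.19 and -2.59) and ATF4 targets (-1.65 and 0.02) have 1 point near 0 each.

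The 2 ratios of the rule did not use the average effect of glutamine, a contrast orthogonal to that of glucose, and this effect was tested on the members. The count filter did use all 12 libraries, so a sparse gene could pass it through a single medium, which favours a glutamine effect. Of the higher members 34 reached a count of 10 with glucose alone, and of the lower ones 55 without glucose alone. For such sparse members the glutamine calls are therefore not independent of the choice. Of the 170 genes higher with glucose, 128 (75.3%) were also called higher with glutamine, 1 was called lower and 41 were not called by limma, while 19.5% of all tested genes were called higher and 18.6% lower. Their median glutamine effect was 0.81 on the log2 scale, and that of all tested genes was -0.00. Of the 130 genes lower with glucose, 81 (62.3%) were called lower with glutamine and 12 (9.23%) higher, with a median of -0.77. Among members with a mean of at least 50, 33 of 34 in the higher set were called higher with glutamine (24.7% of all tested genes of that abundance), and 23 of 32 in the lower set were called lower (29.1%). Equal totals gave 146 of the 170 called higher and 65 of the 130 called lower with glutamine. That scaling moved the background as well. Of all tested genes 3250 were then called higher and 687 lower with glutamine, in place of 1809 and 1722 as deposited. In the higher set 161 of 170 genes had their highest mean in full medium and 161 their lowest in deficient medium (28.6% and 34.4% of all tested genes). In the lower set 104 of 130 were highest in deficient medium and 95 lowest in full medium (36.1% and 27% of all tested genes). The rule itself leaves only the 2 media with glucose for the highest and the 2 without for the lowest mean of a higher gene, and the reverse for a lower gene, so these counts are a description.

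Lower members on and off the ER list were counted separately in this test. Of the 15 members on the ER list, 9 were called higher with glutamine, 3 lower and 3 were not called, with a median of 0.37. Of all 35 tested genes of the list 14 were called higher and 5 lower, with a median of 0.16. Of the 115 lower members outside that list, 3 were called higher and 78 lower, with a median of -0.89. Those 3 were NUCB2, the pseudogene HSP90B2P and SLCO4C1, an organic anion transporter gene with a mean count of 5.82 over the 12 libraries and 1 and 2 reads in glucose-only and deficient medium. PDIA6 (0.79 ± 0.12, SE, limma adjusted p = 5.31e-06), PDIA3 (0.74), NUCB2 (0.61) and CALR (0.60) were the highest of the abundant ones. HSPA5 itself was lower with glutamine (-0.30 ± 0.07, adjusted p = 0.000657, limma), a call that was lost with equal totals, and DNAJB9 was too (-1.16). At the other end, MMP1 (-2.51), HSPA6 (-2.02), DNAJB1 (-1.99) and EGR1 (-1.95) fell with glutamine as well as with glucose. In the higher set H3C3 (1.6), CST4, a cystatin gene (1.44), H4C16 (1.43) and ASPM, a spindle pole protein gene (1.43), had the highest glutamine effects among members with a mean of at least 50. Of the 32 higher members with a histone symbol, 30 were called higher with glutamine, against 98 of the 138 others, and of all 43 tested genes with a histone symbol, members or not, 39 were (90.7%).

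**Figure D4:**
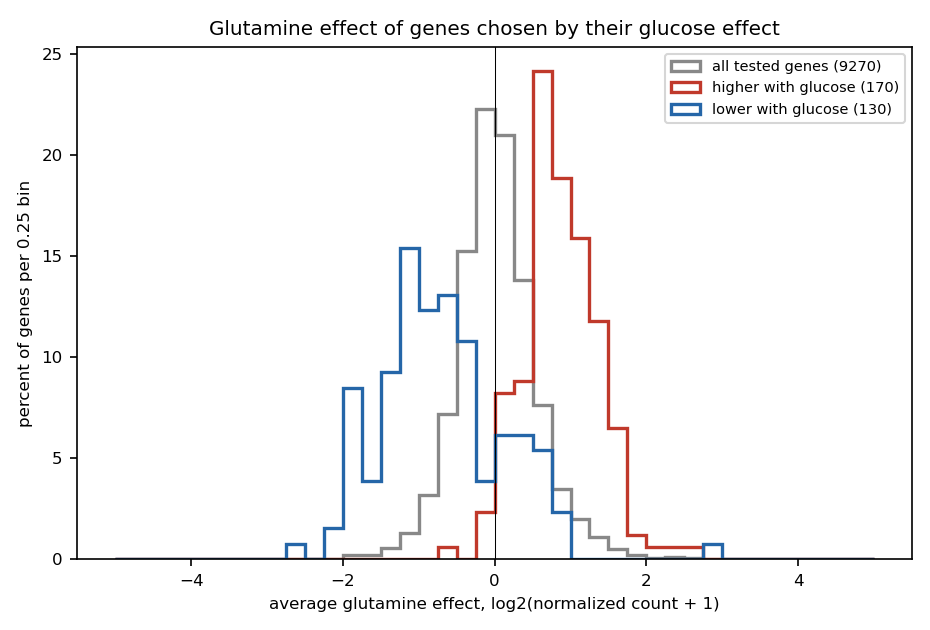
Percent of genes per bin of 0.25 in the average glutamine effect on the log2(normalized count + 1) scale, for all 9270 tested genes (grey), the 170 genes higher with glucose (red) and the 130 lower (blue). The red outline has its median at 0.81 and the blue one at -0.77, with a smaller blue group above 0 that holds PDIA3 and CALR.

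The 2-fold limit divided genes with close values. With any 1 library left out, 102 of the 170 higher and 86 of the 130 lower genes stayed at 2-fold or more in both ratios, and the other 68 and 44 fell under it in at least 1 such case. KIF11, a mitotic kinesin, was just inside the higher set, at 2.97-fold and 2.01-fold, with POGLUT3, a protein O-glucosyltransferase, at 2.01-fold and 2.81-fold. Just outside were MCM3, a subunit of the replicative helicase, at 2.60-fold and 1.94-fold, and the histone gene H2BC5 at 4.30-fold and 1.93-fold. On the lower side HSPA9, the mitochondrial HSP70, was inside at 2.29-fold and 2.02-fold, and GEM, a small GTPase, was outside at 1.99-fold and 10.0-fold, as was SERP1, an ER protein gene, at 1.98-fold and 1.99-fold.

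Glucose effects of at least 2-fold in opposite directions at the 2 glutamine levels were found in 62 genes. CSF2, the cytokine GM-CSF, had 50.9, 45.1 and 34.9 in the full medium, 16.9, 15.7 and 14.1 in glucose-only, 17.1, 13.5 and 12.1 in glutamine-only and 52.1, 72.4 and 57.5 in deficient medium. It was thus 3.06-fold higher with glucose in the presence of glutamine and 3.90-fold lower in its absence. PDK4, a kinase that shuts off pyruvate dehydrogenase, and CEBPD, a transcription factor, had the same pattern. ADM2, a peptide hormone gene, had the reverse one, with 1 read in full medium, 12.6, 10.6 and 5.59 in glutamine-only, 10.8, 21.0 and 15.3 in glucose-only and 3.90, 3.62 and 5.44 in deficient medium.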

How the data were processed

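The study sequenced ribosome-depleted total RNA of MDA-MB-231 cells in 4 media with 3 libraries each. Per the submitters' processing notes, FastQC, HISAT2, Subread and DESeq2 were used with GRCh38.p14. Versions, annotation and strand setting are not given in the sources used here. The deposited values are gene-level signal, read counts divided by 1 size factor per library by the authors. In each library 100% of values were whole multiples of 1 read within 0.01 reads, so reads were recovered for edgeR and DESeq2 as alternatives. The sample columns of the file were all used.

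Of 63187 genes, 32493 had a read and 9270 passed a filter of at least 10 in at least 3 libraries. The test was limma-trend (limma 3.58.1, R 4.3.3) on log2(normalized count + 1), a pseudocount of 1, which understates changes of low genes. All 12 libraries entered 1 fit with a mean per medium. Calls are two-sided, at p under 0.05 after Benjamini-Hochberg adjustment across all 9270. Ratios are of group means, with a mean of 0 set to 3 reads over the group. A 95% interval on a ratio covers counting error alone. The fit was tested on simulated reads.

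The members and the gene lists were chosen with earlier results of these data known. Named genes were, among members with a mean of at least 50 that are no clone, noncoding or pseudogene: the 12 of each direction with the largest smaller ratio, up to 4 with the highest and lowest glutamine effect, and the 2 just inside and just outside the limit. Up to 3 members per list, up to 3 genes each way with opposite effects, and TXNIP, ARRDC4, HSPA5, DDIT3, MKI67 and SLC2A1 were added. EIF2AK3, PDIA4, FTH1, GCLC and genes named only in a count were chosen after their values were seen.

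Of the 63187 IDs, 62666 matched the names table and 42984 had a symbol. Positions and promoters are those of RefSeq on GRCh38.p14, matched by symbol (41447 IDs with a position). Alternatives were pseudocounts of 0.5 and 8, other filters, equal totals, quantile normalization, edgeR 4.0.16, DESeq2 1.42.0, a block on the library letter, each library left out, adjusted p under 0.01, and for the ratios limits of 1.5-fold and 3-fold, 8 added to both means, and the fitted change. A result for a single gene is not reported here.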

Additional observations from a re-analysis of the deposited data

Results flagged for a closer look

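In 7 genes 1 library lay far from the others among the 6 with or the 6 without glucose, by the gap to its neighbour as a share of the group's range. Chance gives such a gap in about 1 of 20 groups. Both groups of every named gene were examined, so several such gaps would arise by chance alone. With glucose, the glucose-only library A was high for EGR1 (share 0.646) and was the only one with a read for NR4A1 (1, the whole range), and glucose-only library B was high for GEM (0.732) and ATF3 (0.666). Without glucose, glutamine-only library B was high for CCNA2 (0.662), glutamine-only library C for CLSPN (0.647) and deficient library B for CEBPD (0.655). The groups compared hold libraries of different media, so these gaps mix the media with the spread within them.

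The glucose effect with glutamine minus the effect without it passed the limma threshold for 33 named genes, given here as log2 differences. The rule on both ratios used the same libraries, and so did the choice of genes with opposite effects. For members and for those genes these values are therefore a description. In 16 of the 28 tested genes of the histone list the difference was called positive and in 0 negative, against 15.5% and 11% of all tested genes. The named histone genes that passed were H3C3 (0.91), H2BC11 (0.78), H3C10 (1.34), H2BC5 (1.17) and H2BC14 (2.06). Named histone genes below 0 were H4C16 (-0.58) and H2AC13 (-0.14), neither past the threshold. Other cell cycle genes were mixed: MKI67 (0.51), CCNA2 (1.02), HELLS (-1.23) and ASPM (-0.73). Among genes lower with glucose, a positive value means a larger fall in the absence of glutamine, as for HSPA6 (3.20), DNAJB1 (4.64), ZFAND2A (2.07), EGR1 (2.62), FOS (3.89), ATF3 (2.24), GEM (2.33), HMOX1 (3.29), FTL (0.58) and GADD45B (1.5). The values of genes of the ER and of the integrated stress response were CALR (0.39), HERPUD1 (-0.71), SLC3A2 (-1.93) and GDF15 (-2.58). Genes with opposite effects were CSF2 (3.43), CEBPD (3.13), PDK4 (3.82), ADM2 (-4.64), STK32A (-3.98) and LAMP3 (-4.70). The remaining values were MMP1 (0.85), ADM (1.55), CXCL1 (1.20) and SLC2A1 (0.69).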

How the results depend on the processing

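As deposited, limma called 3602 genes for glucose and 3531 for glutamine. Equal totals left 1197 lower with glucose and gave 3250 higher and 687 lower with glutamine, in place of 1899, 1809 and 1722. A mean of at least 100 left 806 glucose calls (303 higher and 503 lower), 774 glutamine calls (322 higher and 452 lower), and 10 higher and 12 lower members that also moved the same way with glutamine, since fewer genes were tested. The genes chosen by both ratios (170 higher, 130 lower, 62 opposite) numbered 508, 443 and 298 with a 1.5-fold limit, 38, 46 and 6 with 3-fold, 50, 39 and 5 with 8 added to both means, and 10, 19 and 2 with a mean of at least 100. Of the 170 and 130, 170 and 103 remained with equal totals and 143 and 121 with quantile normalization. Leaving out 1 library gave 163 to 182 higher, 123 to 141 lower and 56 to 73 opposite genes, 3233 to 3497 glucose calls, 3119 to 3377 glutamine calls, and 116 to 127 and 76 to 82 members called the same way for glutamine. A mean of 0 left as 0, chosen after seeing the data, gave 134 lower genes. edgeR called 3707 genes for glucose and DESeq2 2665. The MCM10 glutamine log2 change (-0.17) was 0.058 with equal totals, and the ADM glutamine log2 change (0.07) was -0.016 with a pseudocount of 8 and ranged from -0.00826 (without deficient library C) to 0.14 with 1 library left out, none past the threshold; the cause was not tested. The glutamine call of SDF2L1 was lost with DESeq2 and without glucose-only library A (log2 change 0.55), and those of HERPUD1, FLCN and SERP1 were lost with equal totals. The main fit did not pair libraries by letter. Same-letter pairs correlated weakly, with 0 of 18 above 0.1, but 9 of 12 libraries correlated best with their own letter, so a small shared effect may exist. With the letter as a replicate block 3637 genes were called for glucose, 3576 for glutamine, and 128 and 82 members. Depth limits low genes: the median counts of the 2 sets were 23.0 and 19.8.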

Other observations

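Of the members, 119 of the 170 higher and 91 of the 130 lower genes stood on no gene list, and some of them are given here, chosen after their values were seen. Among the higher ones, LMNB1, which encodes lamin B1 of the nuclear envelope, had 87.9, 73.3 and 85.3 in the full medium, 38.5, 28.3 and 29.4 in glucose-only, 16.2, 22.2 and 16.8 in glutamine-only and 9.11, 8.45 and 10.1 in deficient medium. CIITA, the activator of MHC class II genes, had 44.3, 43.2 and 43.1 in the full medium, 20.5, 31.4 and 20 in glucose-only, 13.5, 12.5 and 15.8 in glutamine-only and 10.4, 6.04 and 8.54 in deficient medium, ratios of 3.12-fold and 2.88-fold. ITGA1, a subunit of a collagen-binding integrin and one of the most abundant higher members, had 322, 323 and 325 in the full medium, 141, 151 and 154 in glucose-only, 156, 163 and 158 in glutamine-only and 74.2, 60.4 and 64.4 in deficient medium, so that the glucose-only libraries lay just below the glutamine-only ones. The cyclin-dependent kinase gene CDK2 was 2.59-fold and 2.39-fold higher with glucose, and SKP2, which marks a CDK inhibitor for degradation, 2.36-fold (1.88-fold without full library C) and 2.64-fold. The glutamine effect of CDK2 (0.40, limma adjusted p = 0.095) and SKP2 (0.43, adjusted p = 0.152) did not pass the threshold.

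Among the lower ones, KCNQ1OT1, a long noncoding RNA of an imprinted region, had 39.0, 48.9 and 43.1 in the full medium, 54.2, 57.6 and 45.9 in glucose-only, 112, 122 and 117 in glutamine-only and 349, 338 and 354 in deficient medium. MIR17HG, the host gene of a microRNA cluster, was 2.74-fold and 2.86-fold lower with glucose. SNAI1, a repressor known from epithelial-mesenchymal transition, had 0.661, 4.70 and 0.917 in the full medium, 1.20, 2.10 and 1.18 in glucose-only, 11.7, 27.9 and 30.8 in glutamine-only and 18.2, 30.2 and 24.1 in deficient medium, and its glutamine effect was -0.01 ± 0.32 (SE, limma adjusted p = 0.98). ID2, an inhibitor of helix-loop-helix factors, was 6.97-fold and 18.2-fold lower with glucose, on 7 reads in full and 4 in glucose-only medium. GNPDA1, which turns glucosamine phosphate into fructose phosphate, had 23.1, 21.6 and 20.2 in the full medium, 42.2, 39.8 and 38.8 in glucose-only, 51.4, 42.4 and 51.3 in glutamine-only and 117, 116 and 102 in deficient medium. ABCA1, a cholesterol exporter, was 2.32-fold and 2.35-fold lower with glucose, and it was also lower with glutamine (-0.72, adjusted p = 0.00275). The antisense genes among the lower members, TXNRD1-AS1 and RALY-AS1, cannot be told apart from their partner genes if the counting did not use strand.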
